A study of Mus musculus with 6 samples.

Results

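Growth factors that act on vessels, fibroblasts and epidermis were described in macrophages that had been sorted from the wounds of young and aged mice on Day 3. The members were 10 listed genes, namely the angiogenic ligands Vegfa and Pgf, the platelet-derived growth factor chains Pdgfa and Pdgfb, the insulin-like growth factor Igf1, the EGF-family ligands Hbegf, Areg, Ereg and Tgfa, and the granulin precursor Grn. A member was taken up where a row of the raw count matrix carried its symbol, and 9 of the 10 had such a row out of 15168 genes in the table. All 9 passed the filter on low counts and were among the 11878 genes tested. Tgfa had no row and was not analysed here, and the lowest total of any gene in the table was 10 counts over the 6 samples.

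Bulk RNA-sequencing was performed on F4/80+ CD64+ cells from full-thickness skin wounds, with 3 samples of each age. Both groups were wild-type female C57BL/6J mice without a transgene, and each mouse carried 2 dorsal wounds of 10 mm. The young group was 12 weeks old and the aged group 24 months old, and all samples were taken 3 days after wounding. The samples are named here by age and by the set letter of their title (young A, B and C, and aged A, B and C). The labels do not say whether a sample was 1 mouse or a pool, so p-values measure the spread between these samples, which may be partly technical. The sort did not exclude cells carrying Ly6G, a neutrophil protein. As the samples were bulk RNA, fewer cells that make a transcript and less transcript per cell cannot be told apart.

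Macrophages that enter a wound supply signals for the next phase of repair. VEGF-A and placental growth factor bind VEGF receptors on endothelium and promote the growth of new vessels, while PDGF draws fibroblasts and pericytes and IGF-1 supports their growth. The EGF-family ligands are made as membrane-anchored precursors, are cut free by ADAM proteases and activate EGF receptors on keratinocytes. Progranulin, the product of Grn, is a secreted and lysosomal glycoprotein that is cleaved into granulins.

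The promoters of Areg and Vegfa are printed because CREB and AP-1 factors and hypoxia genes were counted in these samples, and both windows lie clear of annotated exons. Each holds the 250 bases before a RefSeq transcription start (assembly GRCm38.p6), written 5' to 3' on the strand of the gene. The Areg window is chr5:91139349-91139598 on the plus strand and the Vegfa window is chr17:46032378-46032627 on the minus strand. Capitals mark matches to the searched motifs.
Areg: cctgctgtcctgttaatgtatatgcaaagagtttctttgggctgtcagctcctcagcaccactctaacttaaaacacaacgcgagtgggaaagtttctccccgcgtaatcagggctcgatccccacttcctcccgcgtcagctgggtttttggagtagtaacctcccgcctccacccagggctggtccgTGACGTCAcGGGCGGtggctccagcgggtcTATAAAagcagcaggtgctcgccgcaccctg
Vegfa: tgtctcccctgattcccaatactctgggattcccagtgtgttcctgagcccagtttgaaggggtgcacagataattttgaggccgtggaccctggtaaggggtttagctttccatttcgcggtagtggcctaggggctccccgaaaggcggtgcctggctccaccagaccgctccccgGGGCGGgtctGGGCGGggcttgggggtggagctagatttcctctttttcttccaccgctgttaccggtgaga
The motifs searched on both strands were the cyclic AMP response element TGACGTCA, the AP-1 site TGANTCA, the core of the hypoxia response element ACGTG, the TATA box TATAAA and the GC box GGGCGG, which was added after the sequences had been viewed. None of the matches in these windows overlap one another. The Areg window held the cyclic AMP response element at -61 to -54 relative to the start site, a GC box at -52 to -47 and a TATA box at -31 to -26. The Vegfa window held GC boxes at -72 to -67 and at -62 to -57, and these letters of the other motifs were not in it. A second RefSeq start of Vegfa, whose window at chr17:46025164-46025413 overlaps annotated exons and is not printed, had the hypoxia core at -211 to -207 and a GC box at -158 to -153. Neither printed window held the AP-1 site, whereas the window of Igf1, which is not printed, held it at -37 to -31. Of 32851 mouse promoters of the same length, 1.55% held the cyclic AMP response element, 6.75% the AP-1 site, 16.6% the hypoxia core, 12.4% the TATA box and 32.7% the GC box.

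Total counts ran from 15270103 to 17927483 per sample, and 1 count was worth 0.0553 to 0.0701 CPM (counts scaled to a common library size by the TMM method). Of the sort markers, Fcgr1, which encodes CD64, lay between 422 and 467 CPM in the young and between 486 and 514 CPM in the aged samples, and Adgre1, which encodes F4/80, was lower in aged samples (log2 fold change -0.69, adjusted p = 0.0292 with edgeR). Itgam, which encodes CD11b, moved the other way, from 334 to 402 CPM in young to between 702 and 822 CPM in aged samples (0.99, adjusted p = 0.00735 with edgeR). Young A stood apart from the other young samples in these genes. Its median log2 deviation over the 9 members was 0.41 against the other young samples, compared with -0.18 for young B and -0.29 for young C. Aged B carried transcripts of other skin cells, since its keratinocyte markers summed to 112 CPM against 0.587 to 1.96 CPM in the other 5 samples, with Krt14 alone at 80.2 CPM. Where the call of a member changes without either sample, its value without that sample is given.

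Of the 9 members, Hbegf rose with age, Pdgfb and Igf1 fell, and the other 6 did not pass the test. The p-values came from the quasi-likelihood test of edgeR with the Benjamini-Hochberg adjustment made across the 11878 genes, and genes counted as called where the adjusted p was under 0.05. Over all tested genes 9.73% were called higher and 7.97% lower in aged samples, so that 1 of 9 higher is near the background, and the 2 of 9 lower are few genes to set against it. All 3 called members also changed by more than 2-fold, the second threshold of the study, and 6 of 9 had an unadjusted p under 0.05, as had 34.5% of all tested genes. The median log2 fold change of the members was 0.46, compared with -0.02 over all genes tested. Every aged sample lay above every young sample for 1 member (Hbegf) and below for 3 members (Pdgfb, Igf1 and Grn), where 19.2% and 19.0% of all tested genes separated in these directions. With 3 samples against 3, an exact two-sided permutation test cannot go below p = 0.1, which all 4 separated members reached.

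**Figure D1:**
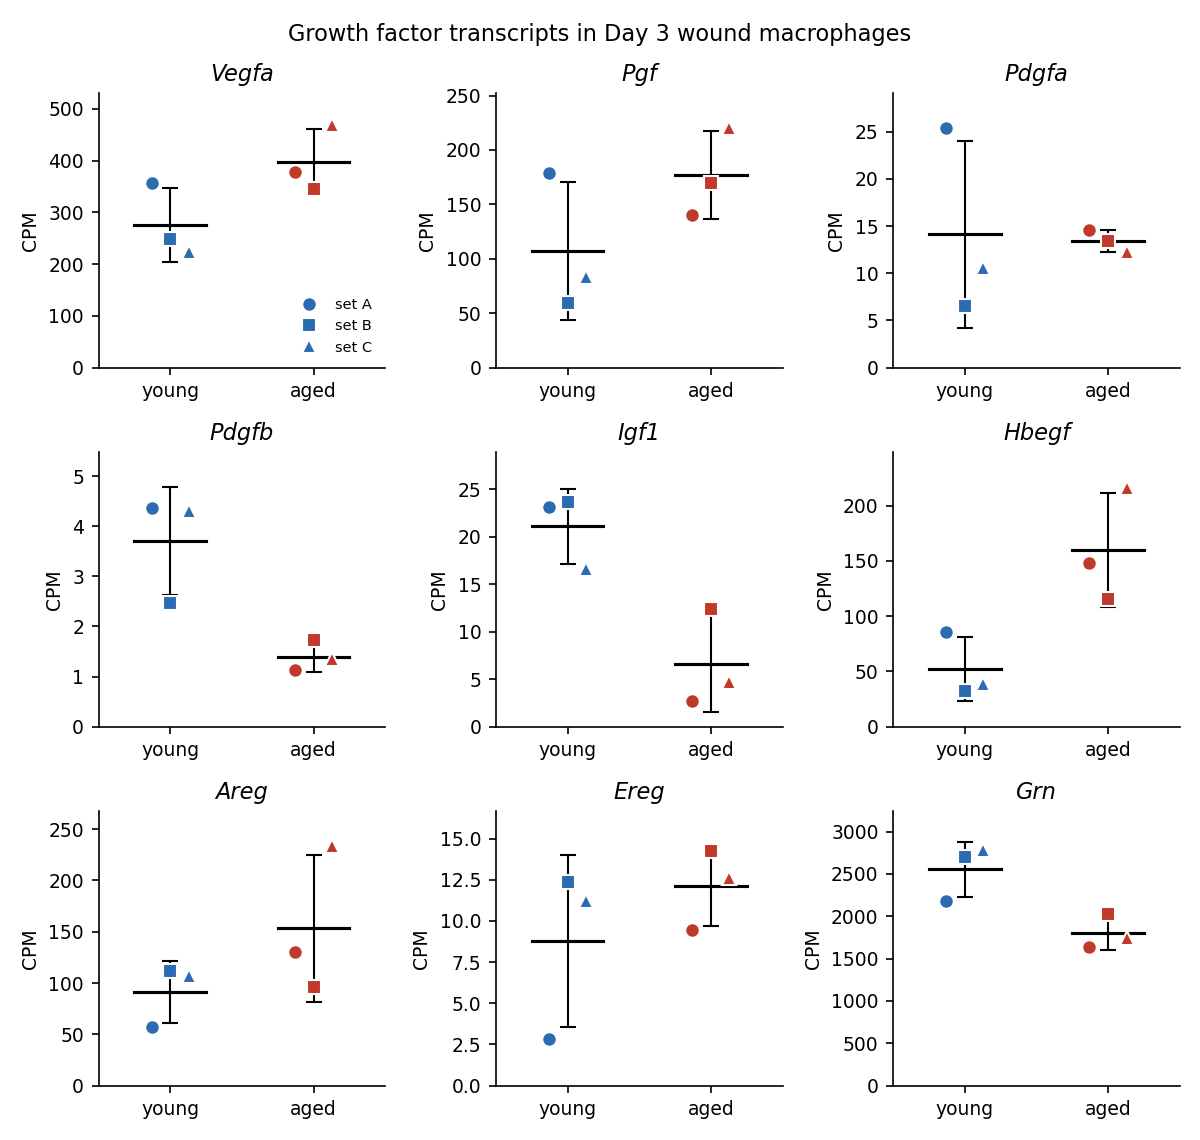
Each panel plots the CPM of 1 growth factor gene in the 6 samples (blue, young and red, aged; the marker shape gives the set letter), with the mean as a horizontal line and the SD as a bar (n = 3). The young and aged points do not overlap for Hbegf, Pdgfb, Igf1 and Grn, and young A lies nearest to the aged points for Vegfa, Hbegf and Grn.

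**Figure D2:**
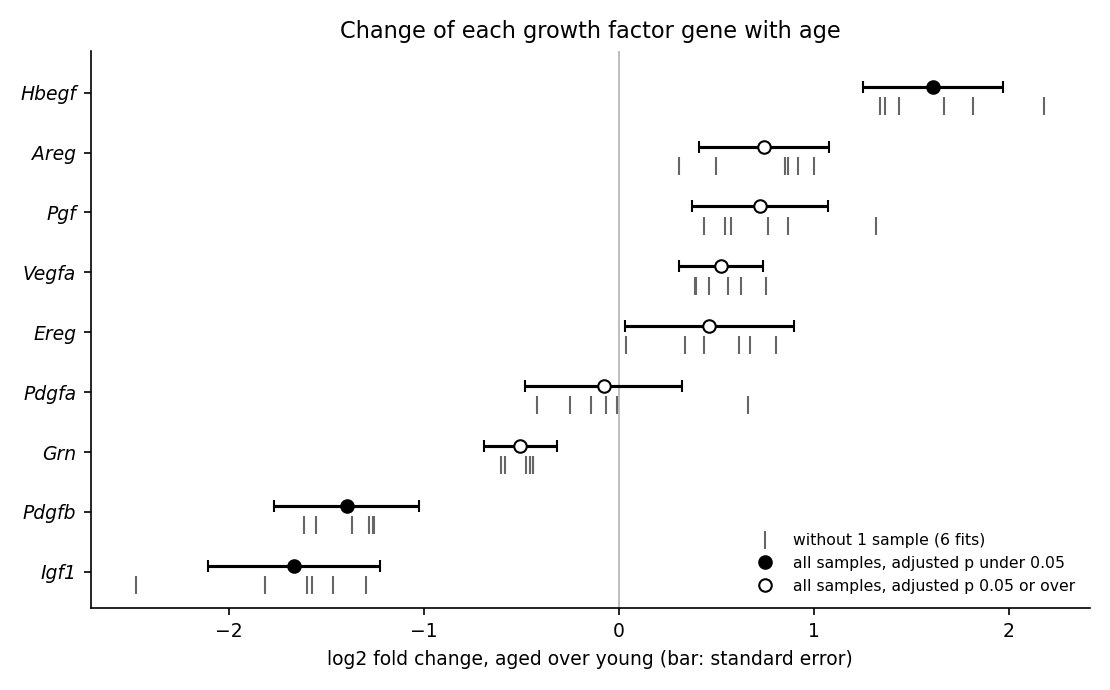
The log2 fold change of aged over young samples is plotted for each of the 9 genes, with its standard error as a bar and filled circles for an adjusted p under 0.05; the ticks beneath give the 6 fits that each left out 1 sample. Hbegf lies at 1.61, Pdgfb at -1.40 and Igf1 at -1.67, and Pdgfa is the only gene whose ticks lie on both sides of 0.

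The angiogenic ligands were both abundant and both had higher means in aged samples, but their samples overlapped and neither passed the test. Vegfa, the main growth factor of vascular endothelium (chr17:46016993-46032370, minus strand, mm10), was measured at 357, 249 and 223 CPM in young A, B and C and at 379, 345 and 469 CPM in aged A, B and C. Young A was above aged B, and the other young samples lay below all aged samples. The means were 276 ± 71.4 CPM in the young and 397 ± 63.8 CPM in the aged samples (SD, n = 3), a log2 fold change of 0.52 (SE is the standard error, here 0.21, edgeR adjusted p = 0.110). Pgf, which encodes placental growth factor, a VEGF relative that binds FLT1 (chr12:85166635-85177791, minus strand), was measured at 179, 59.4 and 83.1 CPM in the young and at 140, 170 and 220 CPM in the aged samples. Here young A exceeded 2 of the 3 aged samples. The mean of Pgf was 107 ± 63.1 CPM in the young and 177 ± 40.3 CPM in the aged samples (log2 fold change 0.72, SE 0.35, edgeR adjusted p = 0.171). Both genes passed without young A, Vegfa with a log2 fold change of 0.76 (adjusted p = 0.0251) and Pgf with 1.32 (adjusted p = 0.00576).

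Summed per kilobase of exon, Vegfa and Pgf together reached 145, 78.4 and 80.7 CPM per kilobase in young A, B and C. The sums were 137, 139 and 185 CPM per kilobase in aged A, B and C. Aged A and aged B were therefore below young A and well above young B and young C. The ratio of Vegfa to Pgf per kilobase was 1.36, 2.84 and 1.82 in young and 1.83, 1.38 and 1.44 in aged samples, and the groups overlapped.

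The PDGF chains were low, and Pdgfb fell while Pdgfa did not pass the test. Pdgfb encodes the B chain, which as a dimer recruits pericytes to new vessels (chr15:79995874-80014978, minus strand), and it was measured at 4.37, 2.46 and 4.29 CPM in the young and at 1.12, 1.72 and 1.36 CPM in the aged samples. All aged samples were below all young samples, on counts of 79, 42 and 65 against 16, 27 and 22. Pdgfb fell by 1.40 on the log2 scale (SE 0.37, edgeR adjusted p = 0.0308), from 3.71 ± 1.08 to 1.40 ± 0.301 CPM. The call was lost in the fits without young A (adjusted p = 0.0617), young C (0.127), aged A (0.0731) and aged C (0.0993), with log2 fold changes between -1.37 and -1.26.

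Pdgfa, which encodes the A chain, a mitogen for dermal fibroblasts (chr5:138976014-138997371, minus strand), was measured at 25.3, 6.51 and 10.5 CPM in the young and at 14.6, 13.4 and 12.2 CPM in the aged samples. The aged samples lay close together, between young C and young A. The means were 14.1 ± 9.92 CPM and 13.4 ± 1.17 CPM (log2 fold change -0.08, SE 0.40, edgeR adjusted p = 0.910). Without young A the log2 fold change was 0.66 and did not pass the test (adjusted p = 0.0911). A row on the opposite strand, 6330403L08Rik, overlaps Pdgfa, and without strand in the counting reads of the pair cannot be told apart. That row was low, at 1.44, 0.469 and 0.330 CPM in the young and 0.0701, 0.382 and 0.618 CPM in the aged samples.
Per kilobase of exon, the Pdgfa level was 7.73, 3.53 and 3.26 times the Pdgfb level in young A, B and C. The ratio was 17.3, 10.4 and 12.0 in aged A, B and C, so that each aged sample had a higher ratio than each young sample.

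**Figure D3:**
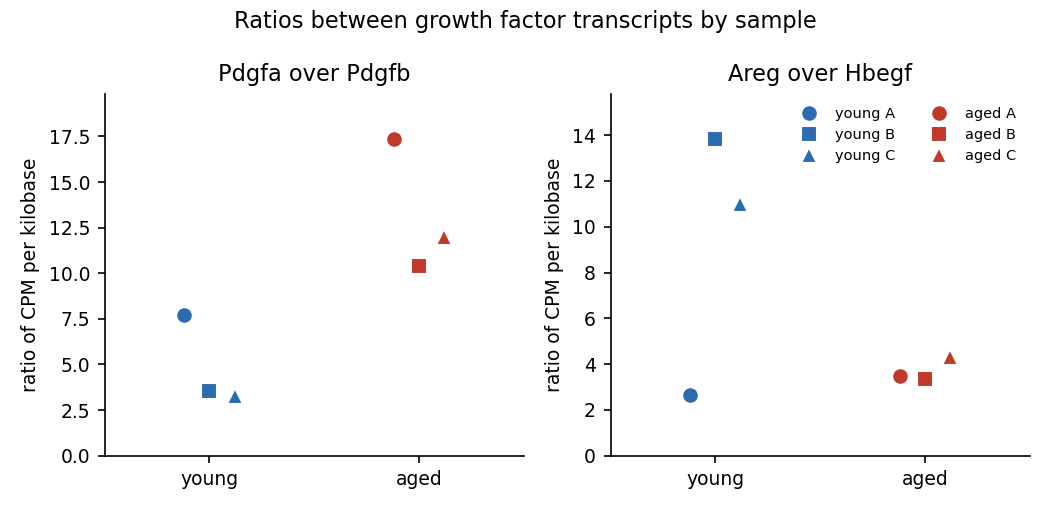
Ratios of CPM per kilobase of exon are plotted for each of the 6 samples, Pdgfa over Pdgfb on the left and Areg over Hbegf on the right. The Pdgfa to Pdgfb ratio runs from 3.26 to 7.73 in young and from 10.4 to 17.3 in aged samples, and the Areg to Hbegf ratio is high in young B and young C alone.

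Igf1 was the other member that fell. This gene encodes insulin-like growth factor 1, a growth signal for fibroblasts and myocytes that is made by repair-associated macrophages (chr10:87858265-87937043, plus strand). It was measured at 23.1, 23.7 and 16.6 CPM in the young and at 2.73, 12.4 and 4.76 CPM in the aged samples. Aged B was the highest aged sample and still below young C, the lowest young one. The mean was 3.18-fold lower in aged samples, at 6.64 ± 5.11 CPM against 21.1 ± 3.96 CPM in young samples (log2 fold change -1.67, SE 0.44, edgeR adjusted p = 0.0301). The call was lost without young B (log2 fold change -1.58, adjusted p = 0.0906), young C (-1.81, 0.0845) and aged C (-1.47, 0.108). Without aged B, whose fibroblast markers summed to 119 CPM against 12.4 to 41.0 CPM in the other samples, the log2 fold change was -2.48 (adjusted p = 0.00221). The sort gated on immune and macrophage surface markers. The part of fibroblast transcripts in the Igf1 level of aged B was not tested.

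Of the EGF-family ligands, Hbegf rose in every aged sample, Areg did not pass the test and Ereg showed overlapping values. Hbegf encodes heparin-binding EGF-like growth factor, a motility signal for keratinocytes (chr18:36504927-36515806, minus strand). It was measured at 85.8, 32.0 and 38.6 CPM in young A, B and C and at 148, 115 and 216 CPM in aged A, B and C. Each aged sample was above young A, the highest young sample. The mean was 3.06-fold higher in aged samples, at 160 ± 51.4 CPM against 52.2 ± 29.4 CPM in young samples (log2 fold change 1.61, SE 0.36, edgeR adjusted p = 0.0178). The call was lost without young B (log2 fold change 1.36, adjusted p = 0.0642), young C (1.44, 0.0929) and aged C (1.34, 0.0653). It was kept without young A, with a log2 fold change of 2.18 (adjusted p = 0.0019).

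Areg encodes amphiregulin, a ligand made by several leukocytes in injured tissue (chr5:91139599-91148433, plus strand). It was measured at 56.9, 111 and 107 CPM in the young and at 130, 96.3 and 234 CPM in the aged samples. Aged B was below young B and young C, and young A was the lowest sample. The mean was 91.7 ± 30.2 CPM in the young and 153 ± 71.8 CPM in the aged samples (log2 fold change 0.74, SE 0.33, edgeR adjusted p = 0.143). Without aged C the log2 fold change of Areg was 0.31, and without aged B it was 1.0. Ereg, which encodes epiregulin and lies 45952 bases from Areg (chr5:91074622-91093647, plus strand), was measured at 2.82, 12.4 and 11.2 CPM in the young and at 9.46, 14.3 and 12.6 CPM in the aged samples. Young A was again the lowest, and the other 5 samples lay close together. The log2 fold change of Ereg was 0.46 (SE 0.43, edgeR adjusted p = 0.481), but 0.04 without young A and 0.80 without young B.

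Young A thus differed between the ligands of this family, as it was the highest young sample for Hbegf and the lowest for Areg and Ereg. Per kilobase of exon, the Areg level was 2.64, 13.8 and 11.0 times the Hbegf level in young A, B and C. The ratio was 3.49, 3.33 and 4.32 in the aged samples, so that young A lay just below the aged range and young B and young C far above it. The 3 ligands together summed to 65.3, 101 and 98.6 CPM per kilobase in the young and to 140, 107 and 240 CPM per kilobase in the aged samples, of which aged B lay closest to the young samples.

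Grn was the most abundant member, with a higher mean than 99.5% of the tested genes. Its row (chr11:102430315-102437049, plus strand) was measured at 2184, 2702 and 2780 CPM in the young and at 1637, 2022 and 1740 CPM in the aged samples. Every aged sample was below every young sample, but the distance between young A and aged B was small. The mean was 2555 ± 324 CPM in the young and 1799 ± 199 CPM in the aged samples, and the log2 fold change of -0.51 (SE 0.19) did not pass the test (edgeR adjusted p = 0.0826). It passed without young A (log2 fold change -0.61, adjusted p = 0.0487) and with DESeq2 on all samples (-0.50, adjusted p = 0.0348). Of the 6 edgeR fits without 1 sample, only 1 called Grn, and the adjusted p-values ran up to 0.242. Sort1, which encodes sortilin, a receptor that takes up progranulin, was measured at 5.18 ± 1.04 CPM in the young and 7.52 ± 2.16 CPM in the aged samples (log2 fold change 0.54, edgeR adjusted p = 0.218). Psap, which encodes prosaposin, a partner of progranulin on the way to the lysosome, was measured at 3603 ± 430 CPM and 3129 ± 589 CPM (log2 fold change -0.20, adjusted p = 0.506).

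Per length, Grn led at 736 CPM per kilobase of exon in young samples, followed by Areg (75.4), Vegfa (64.5), Pgf (36.9), Hbegf (10.8), Pdgfa (4.53), Ereg (2.13), Igf1 (2.13) and Pdgfb (0.891). The order by mean was the same in aged samples, where Grn was at 518, Areg at 126, Vegfa at 92.8, Pgf at 60.9, Hbegf at 33.0, Pdgfa at 4.29, Ereg at 2.93, Igf1 at 0.670 and Pdgfb at 0.336 CPM per kilobase. Areg and Vegfa overlapped between samples in both ages. In young samples Vegfa also overlapped with Pgf, Hbegf with Pdgfa, Pdgfa with Ereg, and Ereg with Igf1. In aged samples Igf1 overlapped with Pdgfb, and the other neighbours in the order did not overlap. Lengths are the union of annotated exons, which exceeds the length of any single transcript where isoforms differ.

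**Figure D4:**
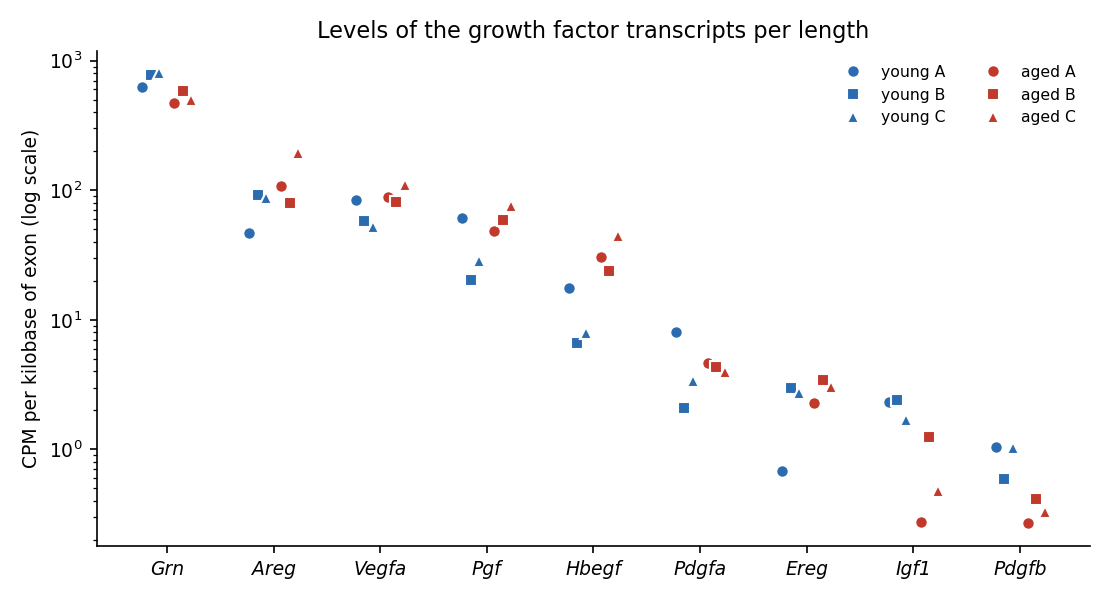
CPM per kilobase of exon is plotted on a log axis for the 9 genes in each of the 6 samples, ordered by the young mean (blue, young and red, aged; the marker shape gives the set letter). Grn lies above 471 in all samples and Pdgfb at or below 1.05, and within a gene the young points spread most for Ereg and Pdgfa.

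Receptors for these ligands were mostly low in the sorted cells and none passed the edgeR test, while 2 had an unadjusted p under 0.05 and DESeq2 called 1. Among all tested genes, edgeR called 9.73% higher and 7.97% lower, and 34.5% had an unadjusted p under 0.05. Of 13 listed receptors 8 were tested, with a median log2 fold change of -0.09, and Egfr, Erbb2, Erbb4, Pdgfra and Pdgfrb, the receptors of EGF-family and PDGF ligands, did not pass the filter on low counts or had no row. With edgeR, Igf1r, the receptor of IGF-1, was measured at 1.71 ± 1.01 CPM in the young and 4.30 ± 1.25 CPM in the aged samples (log2 fold change 1.32, SE 0.44, adjusted p = 0.0620), and Insr, the insulin receptor, at 8.67 ± 1.95 CPM and 5.13 ± 1.40 CPM (-0.76, adjusted p = 0.0890). The VEGF receptors of endothelium, Flt1 and Kdr, stayed under 3 CPM in every sample. The neuropilins, co-receptors of VEGF, were higher, with Nrp1 at 75.5 ± 29.7 CPM in the young and 48.5 ± 22.9 CPM in the aged samples (edgeR adjusted p = 0.214) and Nrp2 at 55.0 ± 15.8 CPM and 45.7 ± 14.7 CPM (adjusted p = 0.502). Igf1r passed without young A (log2 fold change 1.94, adjusted p = 0.0125) or without aged B (1.56, adjusted p = 0.048), and Nrp1 without aged B (-1.07, adjusted p = 0.048).

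Of 13 other ligands of the same families 4 were tested, of which 1 was called with edgeR and with DESeq2. These are few genes to set against the 9.73% of all tested genes that edgeR called higher. Nrg1, which encodes neuregulin 1, an EGF-family ligand of ERBB3 and ERBB4, rose from 96.8 ± 27.5 to 213 ± 55.7 CPM (log2 fold change 1.14, SE 0.25, edgeR adjusted p = 0.0159). Its values were 128, 88.1 and 74.8 CPM in the young and 166, 199 and 275 CPM in the aged samples, and the groups did not overlap. The call was lost without young B, young C or aged C, with adjusted p-values up to 0.0857. Vegfb (3.35 ± 0.632 and 2.13 ± 0.185 CPM), Pdgfc (4.20 ± 1.99 and 3.93 ± 2.65 CPM) and Nrg4 (2.71 ± 1.21 and 4.45 ± 0.861 CPM) did not pass the test.

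Genes that release or bind the ligands rose in 5 of 15 tested with edgeR (7 with DESeq2), and none of the 15 fell with either tool, while 1 lay lower at an unadjusted p under 0.05. Among all tested genes, edgeR called 9.73% higher and 7.97% lower, and DESeq2 called 1474 of 11912 higher and 1091 lower. Rhbdf2 encodes iRhom2, which carries ADAM17 to the cell surface, and it rose from 35.3 ± 18.4 to 104 ± 2.77 CPM (log2 fold change 1.56, SE 0.30, edgeR adjusted p = 0.0113). Its aged values of 102.4, 103 and 108 CPM were nearly equal, whereas the young values were 56.2, 21.8 and 27.8 CPM. Adam17, the main sheddase of HB-EGF and amphiregulin, was measured at 78.8 ± 12.5 CPM in the young and 117 ± 14.3 CPM in the aged samples, and did not pass the test (log2 fold change 0.56, edgeR adjusted p = 0.0503). It passed with DESeq2 (0.57, adjusted p = 0.0233) and with DESeq2 size factors in edgeR (0.57, adjusted p = 0.0468). Adam17 did not pass in edgeR without the filter on low counts (adjusted p = 0.0656). Nor did it pass in any of the 6 edgeR fits without 1 sample (adjusted p between 0.0505 and 0.143). Adam10 rose from 54.2 ± 12.5 to 101 ± 8.34 CPM (0.90, adjusted p = 0.0156) and Adam8 from 522 ± 121 to 1134 ± 188 CPM (1.12, adjusted p = 0.0113). Adam9 and Adam15 did not pass the test (adjusted p = 0.156 and 0.888 with edgeR).

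Furin, a convertase that matures growth factor precursors and sheddases, rose from 59.8 ± 27.7 to 132 ± 40.5 CPM (log2 fold change 1.14, edgeR adjusted p = 0.0331). Its call was lost in the edgeR fits without young B (adjusted p = 0.119), young C (0.138), aged A (0.0877) and aged C (0.0633). Slpi, whose product protects progranulin from elastase, had the highest log2 fold change among the edgeR calls of this list and rose from 345 ± 51.8 to 1161 ± 493 CPM (1.75, adjusted p = 0.00786). Among the binding proteins of IGF-1, Igfbp4 was measured at 75.1 ± 21.1 CPM in the young and 39.7 ± 30.1 CPM in the aged samples and did not pass the test (edgeR adjusted p = 0.152), and aged B, at 74.5 CPM, was unlike aged A at 22.3 CPM and aged C at 22.4 CPM. Without aged B the log2 fold change of Igfbp4 was -1.74 (adjusted p = 0.00387). Igfbp7 was measured at 17.6 CPM in aged B and at 1.83 to 2.22 CPM in the other 5 samples, and its log2 fold change was 1.89 with edgeR (adjusted p = 0.0919) and 1.90 with DESeq2 (adjusted p = 0.0199), but 0.16 without aged B (edgeR adjusted p = 0.814). The median log2 fold change of the 15 genes was 0.45. Of the 5 calls in this list, Slpi kept its call in all 6 fits without 1 sample, while the list held 1 call without young C and 3 without aged C.

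Genes of the hypoxia response, of which Vegfa is a known target, rose in 3 of 18 tested, with a median log2 fold change of 0.22. These are few genes to set against the 9.73% of all tested genes that edgeR called higher. None of the 18 fell with edgeR or DESeq2, and 1 lay lower at an unadjusted p under 0.05. Hif1a, which encodes the oxygen-regulated subunit of the hypoxia-inducible factor, rose from 280 ± 77.1 to 654 ± 33.4 CPM (log2 fold change 1.22, SE 0.21, edgeR adjusted p = 0.00810). Its young values were 362, 208 and 271 CPM and its aged values 661, 684 and 618 CPM, so that the groups stood well apart. Ndrg1, a stress-responsive gene (0.90, adjusted p = 0.0296), and Ero1l, an oxidase of the endoplasmic reticulum (0.90, adjusted p = 0.0381), also rose. The glycolytic genes did not pass the test, as Ldha had a log2 fold change of -0.08 (adjusted p = 0.843), Pgk1 of 0.25 (0.395) and Slc2a1, a glucose transporter, of 0.47 (0.167). Aged B was lower than the other aged samples over the list (median log2 deviation -0.65), and Slc2a1 passed without it (0.69, adjusted p = 0.0422). Without young A, Ero1l lost its call (0.94, adjusted p = 0.0504), Arnt (0.64, adjusted p = 0.0425) and Egln2 (0.71, adjusted p = 0.0341) passed as higher and Car9 as lower (-1.03, adjusted p = 0.0444). Without young C, 0 of the 18 genes were called higher, and without young B, aged A or aged C 1 was.

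The list of EGF receptor feedback genes and CREB or AP-1 factors held 6 genes that rose of 22 tested, with a median log2 fold change of 0.15. Among all tested genes, edgeR called 9.73% higher and 7.97% lower. None of the 22 fell with edgeR, while 3 lay lower at an unadjusted p under 0.05 and DESeq2 called 2 lower. Fosl1, which encodes the AP-1 subunit FRA-1, rose from 42.8 ± 21.6 to 127 ± 47.1 CPM (log2 fold change 1.57, SE 0.36, edgeR adjusted p = 0.0200). Errfi1, a feedback inhibitor of EGF receptors, rose from 725 ± 112 to 1702 ± 455 CPM (1.23, adjusted p = 0.0106). Crem, which encodes a factor of the CREB family, rose from 388 ± 32.9 to 684 ± 172 CPM (0.82, adjusted p = 0.0250), and its young values of 422, 356 and 387 CPM lay below its aged values of 544, 632 and 876 CPM. The phosphatase genes Dusp6 (0.82) and Dusp5 (0.77) and the RAS pathway inhibitor Spred1 (0.73) also rose. Fos (-0.51, adjusted p = 0.206) and Atf3 (-1.07, adjusted p = 0.0634) had negative log2 fold changes that did not pass the test, and Atf3 passed without young A (-1.36, adjusted p = 0.0153), as did Fosb (-1.11, adjusted p = 0.0123). Without aged B, Spred1 lost its call (0.60, adjusted p = 0.110) and Egr1 passed as higher (1.13, adjusted p = 0.0225). With edgeR, 0 of the 22 genes were called higher without young C, 1 without aged C and 2 without young B.

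Other wound growth factors and angiogenic modifiers rose in 5 of 15 tested, with a median log2 fold change of 0.87. Among all tested genes, edgeR called 9.73% higher and 7.97% lower. None of the 15 fell with edgeR or DESeq2, and 1 lay lower at an unadjusted p under 0.05. Of this list, the ribonuclease gene Ang passed as lower without young A (-0.84, adjusted p = 0.0472) and Ccn1, a matricellular factor, without aged B (-3.61, adjusted p = 0.0281, against 0.94 on all samples), while Tgfb3 passed as higher without young A (0.74, adjusted p = 0.0308). Inhba, which encodes an activin subunit, rose from 180 ± 27.0 to 821 ± 336 CPM (log2 fold change 2.19, SE 0.29, edgeR adjusted p = 0.00288). Thbs1 encodes thrombospondin 1, an inhibitor of vessel growth, and it rose from 3854 ± 2701 to 16855 ± 1878 CPM (2.13, adjusted p = 0.0115). Young A, at 6953 CPM, was well above young B and young C (2011 and 2597 CPM), and the log2 fold change of Thbs1 was 2.88 without young A (adjusted p = 0.00124) and lost its call without young C (1.91, adjusted p = 0.0688). Sema3c, a guidance factor that signals through neuropilins, rose from 8.08 ± 1.27 to 28.9 ± 2.84 CPM (1.84, adjusted p = 0.00136). Osm, which encodes oncostatin M, had a log2 fold change of 1.05 (adjusted p = 0.0206), and Tgfb1, which encodes transforming growth factor beta 1, of 1.0 (adjusted p = 0.0149). Inhba and Sema3c kept their calls in all 6 fits without 1 sample, whereas the list held 2 calls without young C and 3 without young B. In all 6 lists together 20 genes were called, of which 19 kept their call without young A, 10 without young B, 3 without young C, 15 without aged A, 19 without aged B and 9 without aged C.

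**Figure D5:**
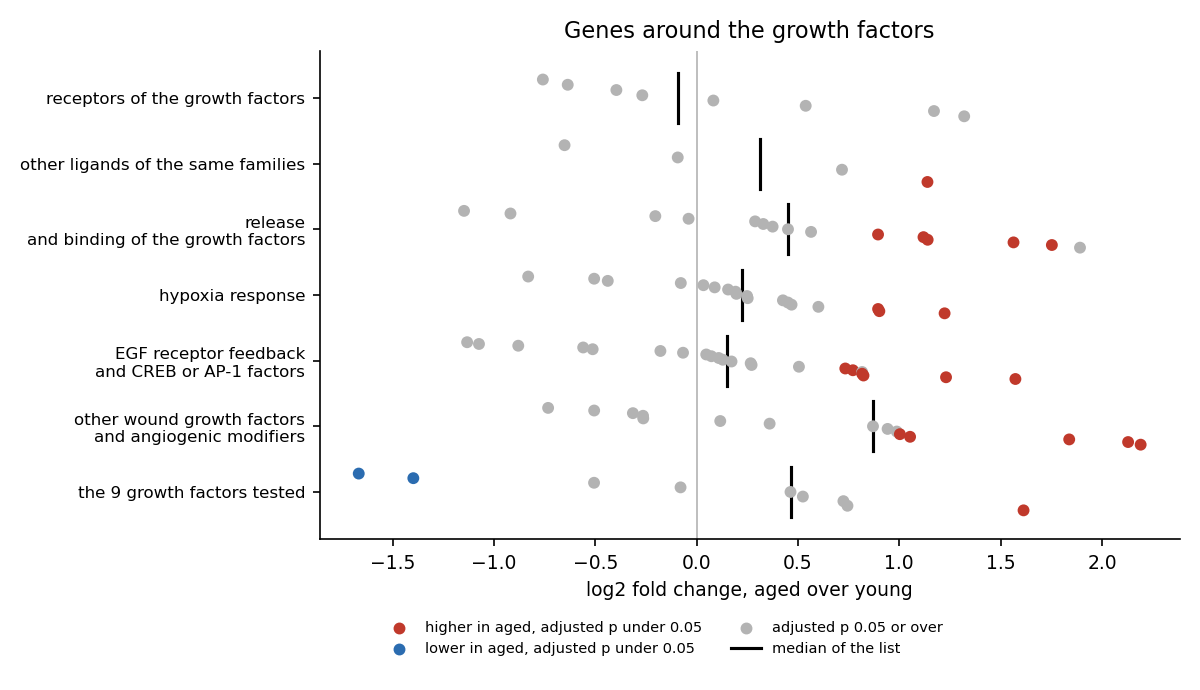
Each dot is the log2 fold change of 1 tested gene of a list, in red where it was called higher and in blue where it was called lower in aged samples, in grey where it was not called, and the black line is the median of the list. The called genes of the lists around the growth factors lie to the right of 0, the receptor list holds none, and blue dots occur for Igf1 and Pdgfb alone.

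The genes whose log2 CPM followed Hbegf most closely over the 6 samples were Ahcyl2 (Pearson r = 0.998), Senp5 (0.995) and Ubap1 (0.994), among 6587 tested genes with a mean of at least 10 CPM. For Vegfa, Atmin (0.994) and Fgl2 (0.992) came first. Fgl2 was measured at 155, 106 and 105 CPM in the young and at 169, 158 and 206 CPM in the aged samples, so that young A was close to aged B as it was for Vegfa. These values describe 6 samples of 2 ages, and were taken as the highest of many.

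Transcripts of other cell types that make these ligands were measured beside the members. The macrophage list summed to between 3809 and 4205 CPM in the young and between 3820 and 4147 CPM in the aged samples. Cd68 was the largest part of this sum, and within the list Itgam was called higher and Adgre1 lower with edgeR. Similar sums therefore hide markers that moved in opposite directions. In aged B, the sample with 112 CPM of keratinocyte markers, Hbegf, Vegfa and Areg had their lowest aged values, and Ereg, Igf1, Pdgfb and Grn their highest. The endothelial list summed to 7.79 to 10.2 CPM in the young and 24.4 to 28.7 CPM in the aged samples, nearly all of it Pecam1, which leukocytes also express, and its defining markers Cdh5, Tek, Tie1, Emcn and Cldn5 were each under 1 CPM in every sample. Of 5 platelet genes, Ppbp rose from 303 to 500 CPM in young to between 890 and 2738 CPM in aged samples (log2 fold change 2.02, edgeR adjusted p = 0.00967), and Pf4 did not pass the test (adjusted p = 0.477). The defining platelet gene Itga2b was under 1 CPM in every sample. The neutrophil list summed to 486 to 882 CPM in the young and 640 to 1203 CPM in the aged samples, and 2 of its 8 tested genes, Cxcr2 and Retnlg, rose. Mast cell markers summed to 68.1, 33.8 and 18.7 CPM in young A, B and C and to 53.7, 1.02 and 0.741 CPM in aged A, B and C. Dendritic cell markers summed to 54.7, 21.8 and 16.1 CPM in young A, B and C and to 93.8, 30.3 and 39.6 CPM in aged A, B and C, and T cell and ILC markers to 1.12 to 2.10 CPM in the young and 1.79 to 3.92 CPM in the aged samples. The part of keratinocyte, neutrophil, mast cell and dendritic cell transcripts in the levels of the members was not tested.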

How the data were processed

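RNA of sorted Day 3 wound macrophages from 3 young and 3 aged samples was amplified with a SMART-Seq v4 kit and sequenced by the study. The authors aligned the reads with STAR 2.7.3a to mm10 and quantified them in Partek on Ensembl transcripts 102, and the deposited table holds expected counts per gene, of which 30.7% to 34.0% per sample are not whole. Whether strand was used in the counting is not given in the sources used here. A second deposited table with DESeq2-normalised values and the authors' own p-values and fold changes was not used.

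Expected counts were rounded, as the design had set for a table that holds them. Testing used R 4.3.3 and edgeR 4.0.16 with TMM scaling, filterByExpr, the quasi-likelihood test between the ages and Benjamini-Hochberg adjustment over 11878 genes, and was tested on simulated data. CPM were computed from the rounded counts, and log2 CPM with a prior count of 2. DESeq2 1.42.0, DESeq2 size factors, no filter on low counts, a block for the set letter and fits without each sample were alternatives. Samples of an age differed beyond sampling noise and were all counted. Exon lengths came from GENCODE M21, promoters from RefSeq.

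The members and lists were chosen with earlier results of these data known. Named genes were all members, the called genes of each list with the highest and lowest fold change, receptors and sheddases of members, and the 3 closest patterns to Hbegf and to Vegfa, apart from a gene that is not reported here. The other genes named were chosen after their values were seen.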

Additional observations from a re-analysis of the deposited data

How the results depend on the processing

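Under DESeq2 size factors and without the filter on low counts, the members called were those of the test on all samples (1 higher and 2 lower). DESeq2 also called Grn, with a log2 fold change of -0.50 (adjusted p = 0.0348). Whether the set letters pair the samples is not given by the labels, and 3 samples of each age are too few to decide it. Deviations of same-lettered samples correlated at 0.18 for A, -0.02 for B and 0.11 for C. Those of samples with different letters ran from -0.22 to 0.14, and not every sample correlated best with its own letter. With the set letter as a replicate block, 1202 genes were called higher and 912 lower, 1 member was called lower instead of 2, Pdgfb had a log2 fold change of -1.37 (adjusted p = 0.0504) and Pdgfa of 0.13. Of the list genes the block called Igf1r higher (1.41, adjusted p = 0.0355) and Nrp1 (-0.67, 0.0253), Igfbp4 (-1.13, 0.0197) and Ang (-0.75, 0.0433) lower, Spred1 lost its call (0.75, 0.0518), and the uncalled Ccn1 turned to -0.90. Across the 6 fits with 1 sample left out, the members called higher numbered 0 to 3 and those called lower 0 to 2, and the genes called higher numbered 151 to 1574 and those called lower 67 to 1128, against 1156 and 947 on all samples. The fewest calls came without young C. Over all 6 fits the log2 fold change ran from 0.39 to 0.76 for Vegfa, 0.44 to 1.32 for Pgf and -0.42 to 0.66 for Pdgfa. It ran from -1.62 to -1.26 for Pdgfb, -2.48 to -1.30 for Igf1 and 1.34 to 2.18 for Hbegf. For Areg it ran from 0.31 to 1.0, for Ereg from 0.04 to 0.80 and for Grn from -0.61 to -0.44. Of the 61 uncalled genes of the lists, 19 turned direction in some of these fits, among them Kdr (-0.74 to 0.034), Erbb3 (-0.17 to 0.41), Adam15 (-0.12 to 0.059), Ldha (-0.29 to 0.14), Pdgfc (-0.76 to 0.36), Tgfb3 (-0.15 to 0.74) and Ccn1 (-3.61 to 1.53). Of 120 counts of called list genes over these settings, 28 moved by more than 1.5 times. The cause of these moves was not tested, and some came from DESeq2 or the block, which used all samples. Pdgfb rested on 16 to 79 counts per sample.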
